A study of Mus musculus with 16 samples.

Results

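The genes described here write, maintain and erase 5-methylcytosine in DNA. They are the DNA methyltransferases Dnmt1, Dnmt3a and Dnmt3b, the cofactors Dnmt3l and Uhrf1, the dioxygenases Tet1, Tet2 and Tet3, and the glycosylase Tdg. They were taken by name, as the rows of the gene table whose Ensembl identifier carries one of these symbols. All 9 were found among 56941 gene entries, and all 9 passed the filter on low counts that left 31057 genes for testing. They drew between 1150 reads (Tdg) and 125740 reads (Tet1) in a library.

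The RNA came from the chromatin fraction of E14TG2a, a mouse embryonic stem cell line that all groups share. Cells were kept in serum with LIF at 1000 U per ml, the MEK inhibitor PD0325901 at 1 µM and the GSK3 inhibitor CHIR99021 at 3 µM. The 8 groups, of 2 libraries each, ectopically expressed full-length KDM4A, KDM4B, KDM6A (UTX) or KDM6B, or the same demethylase without its intrinsically disordered region (IDR), a stretch of protein with no fixed fold. KDM4A and KDM4B remove methyl groups from lysines 9 and 36 of histone H3, and KDM6A and KDM6B from lysine 27. Every group carried a construct, so each comparison sets an IDR-deleted against a full-length protein and none has cells without one. The labels, which write the deletion as del-cIDR in titles and del-IDR elsewhere, do not give the residues removed, the promoter of the construct, or whether cells were clones or pools. They do not say either whether the 2 libraries of a group were separate cultures. The p-values therefore measure the spread between these libraries, which may be technical.

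DNMT1 copies methylation onto the new strand after replication, and UHRF1 brings it there by binding hemimethylated CpG sites and modified histones. DNMT3A and DNMT3B set methylation on unmarked sites, and DNMT3L, which has no activity of its own, helps them in germ cells and early embryos. TET enzymes oxidise 5-methylcytosine, and TDG cuts out the most oxidised forms so that repair can put back plain cytosine. In naive mouse embryonic stem cells under MEK and GSK3 inhibitors, methylation is known to be low, Tet1 and Tet2 are the main TET genes, and Dnmt3b and Dnmt3l are known to be repressed in comparison with cells grown without them.

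The proteins of these genes write, maintain or erase methylation at CpG sites, or help to. The CpG sites ahead of their own RefSeq starts are therefore described. Of the genes with 1 such start, Tet1, Dnmt3b and Tet2 were chosen by name to be shown, and Tet3 and Tdg are not shown. RefSeq windows (GRCm38.p6, an older build than that of the counts) were found for all 9 genes, 16 windows in all. Coordinates were not converted between builds, so a window need not lie at the outermost start of the gene as counted. Tdg, on the same chromosome as Tet1, has its window up to 82629837 and its counted start at 82465662. At that shift between builds, the Tet1 window would lie inside the counted Tet1 gene. In the 16 windows, the 250 bases upstream of the start held a median of 16 CpG sites, against 6 over all 32851 windows. Tet2 had 51, a number reached by 0.1% of all windows, Dnmt3b 21 (16.3%) and Tet1 15 (27.3%). The 3 windows of Dnmt3l were the poorest set, with 3 to 5. The bases are given 5′ to 3′ up to the start site, with each CpG in capitals, for Tet1 (chr10:62887325-62887574, strand -), Dnmt3b (chr2:153649199-153649448, strand +) and Tet2 (chr3:133544391-133544640, strand -).
Tet1: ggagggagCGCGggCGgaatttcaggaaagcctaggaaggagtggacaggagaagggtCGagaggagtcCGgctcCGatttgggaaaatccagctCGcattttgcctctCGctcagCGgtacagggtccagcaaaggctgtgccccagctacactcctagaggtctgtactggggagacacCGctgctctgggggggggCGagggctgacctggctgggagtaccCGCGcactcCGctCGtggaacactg
Dnmt3b: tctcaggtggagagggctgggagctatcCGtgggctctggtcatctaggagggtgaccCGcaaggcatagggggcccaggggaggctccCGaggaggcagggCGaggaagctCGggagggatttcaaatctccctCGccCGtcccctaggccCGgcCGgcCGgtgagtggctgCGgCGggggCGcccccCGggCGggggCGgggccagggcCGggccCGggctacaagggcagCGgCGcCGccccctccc
Tet2: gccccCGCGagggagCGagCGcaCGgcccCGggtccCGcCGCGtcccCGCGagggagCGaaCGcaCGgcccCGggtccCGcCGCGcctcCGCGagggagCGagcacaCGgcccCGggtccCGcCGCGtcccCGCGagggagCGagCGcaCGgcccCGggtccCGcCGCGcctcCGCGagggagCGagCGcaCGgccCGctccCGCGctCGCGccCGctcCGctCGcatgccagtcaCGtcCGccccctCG
The GC box GGGCGG was found on either strand in 11 of the 16 windows, from 8 of the 9 genes, and in 32.74% of all windows of this length. The E-box CACGTG was found in 3 of the 16, those of Tdg and 1 each of Dnmt3a and Dnmt3l (6.02% of all). The E2F letters TTTCCCGC (0.89% of all) and the palindromic NRF1 motif (0.78%) were in none of the 16. Nothing was measured on the methylation of these sites.

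Libraries held 32739117 to 54890756 gene reads. The IDR-deleted KDM4A group and both KDM6B groups stood apart from the other 5 groups on the first dimension of a multidimensional scaling (58.4% of the variance). In those 3 groups there were 26.1 to 36.8 reads on intronic repeat copies per 100 gene reads, against 49.97 to 62.2 in the rest. Mitochondrial reads made up 0.357% to 0.691% of gene reads there and 0.170% to 0.265% in the rest. Kdm6a stood at 415 to 441 CPM in the 4 KDM6A libraries and at 95.7 to 156 CPM in the other 12, while Kdm4a, Kdm4b and Kdm6b were 1.21, 1.03 and 1.19 times as high in libraries of their own construct, so for these 3 the counts do not show the construct. All 10 embryonic stem cell markers had reads in every group, with a summed level of 1846 to 2556 CPM per library. Their changes on deletion are given with those of the other marker lists.

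Levels are given as CPM, the exon reads of a gene as a rate of all gene reads of its library, with library sizes adjusted to the typical gene (TMM), and group values as means ± SD with n = 2. Changes are log2 differences, IDR-deleted minus full-length, ± standard error, from 1 edgeR quasi-likelihood fit of all 16 libraries. A gene "rose" or "fell" where its Benjamini-Hochberg adjusted p over all 31057 genes was under 0.05. The table also holds ERCC RNAs, an outside standard that the labels do not mention. Scaling to them moved the median of all genes from -0.05 to -0.70 for the KDM4A deletion, from 0.01 to -0.18 for KDM4B, from 0.00 to -0.21 for KDM6A and from 0.00 to -0.38 for KDM6B. Changes on the TMM scale are therefore relative to the typical gene, and values "with ERCC scaling" are given with them. ERCC reads ran from 0.582% of gene reads in a full-length KDM4B library to 1.55% in an IDR-deleted KDM6B library. Orders of groups and ranges of CPM hold on the TMM scale only. They were not made with ERCC scaling, where they can differ. In bulk RNA, fewer cells of a type and less RNA per cell cannot be told apart.

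Per base of exon, Tet1 was the highest of the 9 genes and Tet3 the lowest. On the scale of RPKM, which divides by exon length and depth, the mean level over the 8 groups was 129 for Tet1, 93.1 for Dnmt1, 84.5 for Uhrf1 and 42.6 for Tet2. It was 29.1 for Dnmt3l, 14.6 for Dnmt3b, 6.89 for Tdg, 5.59 for Dnmt3a and 4.72 for Tet3. The maintenance pair and the TET enzymes of stem cells thus led, and the de novo writers were low. Between the highest and the lowest library, Dnmt3b ranged 2.61-fold and Dnmt3l 2.46-fold, and Tet3 only 1.19-fold. A joint test found differences among the 8 groups for all 9 genes (75.8% of all genes tested), most weakly for Tet3 (adjusted p = 0.017).

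**Figure D1:**
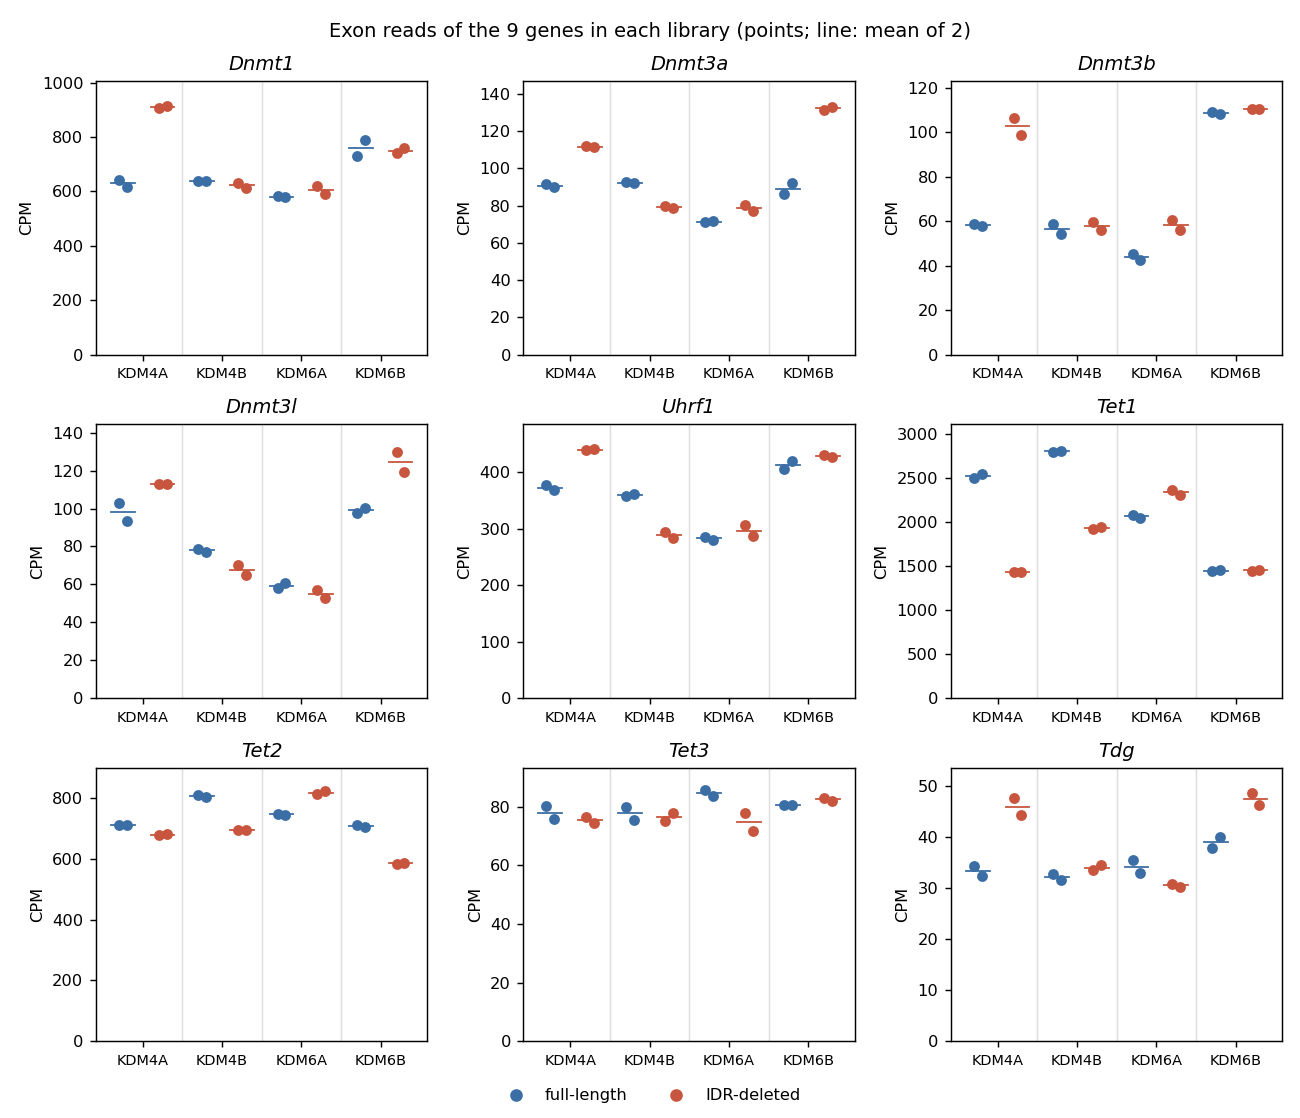
Exon reads of each gene in CPM on the TMM scale (vertical axis from 0) in the 16 libraries, ordered by demethylase on the horizontal axis; each point is 1 library (blue full-length, red IDR-deleted) and each line the mean of 2. Dnmt3b is high in IDR-deleted KDM4A and in both KDM6B groups (98.6 to 110.5 CPM), where Tet1 is low (1435 to 1454 CPM).

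Among the maintenance genes, Dnmt1 (ENSMUSG00000004099, chromosome 9, 20818505 to 20871184 on GRCm39) was read at 643 and 618 CPM with full-length KDM4A and at 907 and 914 CPM with the IDR-deleted protein. This was its highest group on the TMM scale, where no other library passed 788 CPM. The rise was 0.53 ± 0.03 (adjusted p = 5.6e-16), but with ERCC scaling the value was -0.12 (adjusted p = 0.051). Dnmt1 did not pass in the other 3 deletions, at -0.03 ± 0.03 (KDM4B), 0.06 ± 0.03 (KDM6A) and -0.02 ± 0.03 (KDM6B). With ERCC scaling it was lower in all of these (-0.22, -0.15 and -0.40; adjusted p = 8.7e-04, 0.033 and 1.2e-08). Both KDM6B groups (729 and 788, 740.04 and 758 CPM) came next in order and overlapped, and the remaining 5 groups lay between 579.8 and 643 CPM.

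Uhrf1 (ENSMUSG00000001228, chromosome 17, 56610321 to 56630486) gives the protein that recruits DNMT1 to replicated DNA. It was read at 377 and 369 CPM with full-length KDM4A and at 438 and 441 CPM after deletion, a rise of 0.24 ± 0.04 (adjusted p = 6.5e-07) that was a fall of -0.42 with ERCC scaling (adjusted p = 3.7e-09). In the KDM4B groups it went from 358 and 361 to 293 and 283 CPM, a fall of -0.32 ± 0.04 (adjusted p = 3.3e-09; -0.51 with ERCC scaling). The deletions of the 2 KDM4 proteins thus stood on opposite sides on the TMM scale and on the same side with ERCC scaling. With KDM6A (0.07 ± 0.04) and KDM6B (0.05 ± 0.04) Uhrf1 did not pass. With ERCC scaling it was lower for KDM6B (-0.33, adjusted p = 2.4e-06) and at -0.15 for KDM6A (adjusted p = 0.054). On the TMM scale its 3 highest groups were IDR-deleted KDM4A and both KDM6B groups. Its 3 lowest, the KDM6A groups and IDR-deleted KDM4B, lay between 279.9 and 306 CPM with overlap between neighbours.

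Of the de novo writers, Dnmt3b (ENSMUSG00000027478, chromosome 2, 153491370 to 153529650) showed the largest rise of the 9 genes. It was read at 58.9 and 57.7 CPM with full-length KDM4A and at 107 and 98.6 CPM after deletion, 0.82 ± 0.06 higher (adjusted p = 1.2e-15). It was the only one of the 9 still up with ERCC scaling in this comparison, at 0.16 (adjusted p = 0.046). With KDM6A it went from 45.2 and 42.4 to 60.7 and 56.2 CPM (0.42 ± 0.06, adjusted p = 4.2e-07; with ERCC scaling 0.20, adjusted p = 0.034). In KDM4B (0.03 ± 0.06) and KDM6B (0.03 ± 0.05) it did not pass. With ERCC scaling KDM6B gave -0.36 (adjusted p = 2.2e-05) and KDM4B -0.16 (adjusted p = 0.077). On the TMM scale the levels lay in 3 ranges. IDR-deleted KDM4A and both KDM6B groups lay between 98.6 and 110.5 CPM, and full-length KDM6A between 42.4 and 45.2 CPM. The other 4 groups, which overlapped, lay between 54.4 and 60.7 CPM.

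Dnmt3a (ENSMUSG00000020661, chromosome 12, 3856007 to 3964443), the other de novo enzyme, passed in all 4 deletions on the TMM scale, in both directions. The largest step was in KDM6B, from 86.1 and 92.03 to 131 and 133 CPM (0.57 ± 0.05, adjusted p = 6.7e-12), and it remained a rise with ERCC scaling (0.19, adjusted p = 0.012). In KDM4A it went from 91.4 and 89.7 to 112 and 111 CPM (0.30 ± 0.05, adjusted p = 8.3e-07), which was -0.35 with ERCC scaling (adjusted p = 2.0e-06). In KDM4B it fell from 92.6 and 92.1 to 79.6 and 78.6 CPM (-0.22 ± 0.05, adjusted p = 1.7e-04; -0.41 with ERCC scaling). The KDM6A rise was small, 0.14 ± 0.05 (adjusted p = 0.035; -0.08 with ERCC scaling), and was lost without either full-length library (adjusted p = 0.17 without replicate 1 and 0.11 without replicate 2) or without IDR-deleted replicate 1 (0.24), in a fit of the 4 KDM6A libraries alone (0.11) and with no filter on low counts (0.066). On the TMM scale the top group, IDR-deleted KDM6B, was followed by IDR-deleted KDM4A, and the full-length KDM4A and KDM6B groups overlapped. With ERCC scaling the order differed: full-length KDM6A, the lowest group on the TMM scale, was 0.60 above full-length KDM6B.

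Dnmt3l (ENSMUSG00000000730, chromosome 10, 77877781 to 77899456), the inactive helper of both, rose with KDM6B deletion from 97.6 and 101 to 129.9 and 119 CPM (0.33 ± 0.05, adjusted p = 1.2e-05; with ERCC scaling -0.05, adjusted p = 0.62). In KDM4A it stood at 103 and 93.7 against 113 and 113 CPM (0.20 ± 0.05, adjusted p = 0.0020; -0.45 with ERCC scaling), and without full-length replicate 2 it did not pass (0.14, adjusted p = 0.087). In KDM4B it fell from 78.8 and 77.3 to 70.3 and 64.8 CPM (-0.21 ± 0.05, adjusted p = 0.0021), and without IDR-deleted replicate 2 it did not pass (-0.15, adjusted p = 0.086). The KDM6A groups were its lowest on the TMM scale, at 52.9 to 60.5 CPM. The difference between them did not pass (-0.11 ± 0.05, adjusted p = 0.19; with ERCC scaling -0.32, adjusted p = 2.3e-04). An overlap of 67 exon bases with Aire on the other strand makes a small part of its counts uncertain.

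Tet1 (ENSMUSG00000047146, chromosome 10, 62640349 to 62744775) showed the largest fall of the 9 genes. It was read at 2504 and 2543 CPM with full-length KDM4A and at 1435 and 1435 CPM after deletion, a fall of -0.81 ± 0.03 (adjusted p = 3.4e-25) that was -1.47 with ERCC scaling. In KDM4B it went from 2801 and 2811 to 1925 and 1938 CPM (-0.54 ± 0.03, adjusted p = 3.1e-19; -0.73 with ERCC scaling). In KDM6A the direction was the other one, from 2081 and 2048 to 2367 and 2308 CPM (0.18 ± 0.03, adjusted p = 2.1e-06), but -0.04 with ERCC scaling (adjusted p = 0.70). The KDM6B groups were alike on the TMM scale, with 1441 and 1454 against 1444 and 1453 CPM (0.00 ± 0.03, adjusted p = 0.99), and differed with ERCC scaling (-0.38, adjusted p = 8.2e-09). On the TMM scale IDR-deleted KDM4A thus came down to the level of the KDM6B groups. IDR-deleted KDM4B stayed between them and the other full-length groups.

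Tet2 (ENSMUSG00000040943, chromosome 3, 133169440 to 133250900), the second TET enzyme of stem cells, moved less. In KDM6B it fell from 713 and 704 to 584 and 587 CPM (-0.27 ± 0.03, adjusted p = 7.2e-09), its lowest group, and in KDM4B from 811 and 805 to 695 and 694 CPM (-0.22 ± 0.03, adjusted p = 1.8e-07). With ERCC scaling these were -0.65 and -0.41. In KDM6A it rose from 748 and 744 to 814 and 822 CPM (0.13 ± 0.03, adjusted p = 0.0012; with ERCC scaling -0.08, adjusted p = 0.32). The KDM4A groups stood at 711 and 711 against 677 and 681 CPM (-0.07 ± 0.03, adjusted p = 0.063), a difference just past the threshold with DESeq2 (adjusted p = 0.023), with the other 2 filters, with a replicate block (adjusted p = 0.038) and without any 1 of 6 libraries of other groups, and -0.72 with ERCC scaling.

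Tet3 (ENSMUSG00000034832, chromosome 6, 83339355 to 83436066), known for its role in the zygote and in neurons, was the steadiest on the TMM scale, at 71.8 to 85.7 CPM in all 16 libraries. It fell only with KDM6A, from 85.7 and 83.8 to 77.7 and 71.8 CPM (-0.18 ± 0.05, adjusted p = 0.0099; -0.40 with ERCC scaling). Without full-length replicate 1 or IDR-deleted replicate 2 this did not pass (adjusted p = 0.10 and 0.22). The other values were -0.04 ± 0.05 (KDM4A), -0.02 ± 0.05 (KDM4B) and 0.04 ± 0.05 (KDM6B), all of which were lower with ERCC scaling (-0.70, -0.21 and -0.34; adjusted p = 2.3e-14, 0.011 and 1.8e-05).

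Tdg (ENSMUSG00000034674, chromosome 10, 82465662 to 82486633), whose protein cuts out the most oxidised bases, had the fewest reads. It rose in KDM4A from 34.3 and 32.4 to 47.6 and 44.2 CPM (0.46 ± 0.07, adjusted p = 2.1e-07; with ERCC scaling -0.19, adjusted p = 0.035). In KDM6B it rose from 37.8 and 40.01 to 48.6 and 46.3 CPM (0.29 ± 0.07, adjusted p = 0.0013; with ERCC scaling -0.09, adjusted p = 0.38). It did not pass in KDM4B (0.08 ± 0.07; with ERCC scaling -0.11, adjusted p = 0.32) or KDM6A (-0.16 ± 0.07; with ERCC scaling -0.38, adjusted p = 2.2e-04). Its exons share 367 bases (6.83% of their length) with Glt8d2 on the other strand, and strand was ignored in the counting.

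By comparison, the KDM4A deletion changed 7 of the 9 genes, with 6 rises and the fall of Tet1, where 50.5% of all genes tested were called (24.6% higher, 25.9% lower). The libraries of the 2 groups did not overlap for 8 of the 9 (73.2% of all genes). The median of the 9 was 0.24, against -0.05 for all genes. With ERCC scaling 1 rose (Dnmt3b) and 7 fell, and of all genes 4.71% rose and 57.2% fell. The KDM4B deletion changed 5 of 9, all lower: Uhrf1, Dnmt3a, Dnmt3l, Tet1 and Tet2 (36.2% of all genes called, 18.6% higher and 17.6% lower; median of the 9 -0.21, of all genes 0.01). The groups did not overlap for 7 of the 9 (66.8% of all genes). With ERCC scaling 7 of the 9 fell, and of all genes 9.26% rose and 27.6% fell.

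The KDM6A deletion changed 5 of 9, with rises of Dnmt3a, Dnmt3b, Tet1 and Tet2 and a fall of Tet3 (17% of all genes called, 8.3% higher and 8.65% lower; medians 0.07 and 0.00). The groups did not overlap for any of the 9 (53.6% of all genes). Without full-length replicate 1 only 3 passed, all of them rises. With ERCC scaling 1 rose (Dnmt3b) and 4 fell, and of all genes 1.43% rose and 23% fell. The KDM6B deletion changed 4 of 9, with rises of Dnmt3a, Dnmt3l and Tdg and a fall of Tet2 (20.6% of all genes called, 9.89% higher and 10.7% lower; medians 0.04 and 0.00), and the groups did not overlap for 7 of the 9 (58% of all genes). With ERCC scaling 1 rose (Dnmt3a) and 6 fell, and of all genes 2.13% rose and 42.8% fell. No gene of the 9 rose in all 4 deletions or fell in all 4 on the TMM scale. With ERCC scaling only Tet3 fell in all 4 (-0.70, -0.21, -0.40 and -0.34 in KDM4A, KDM4B, KDM6A and KDM6B) and none rose in all 4. The medians of all genes were then -0.70, -0.18, -0.21 and -0.38.

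**Figure D2:**
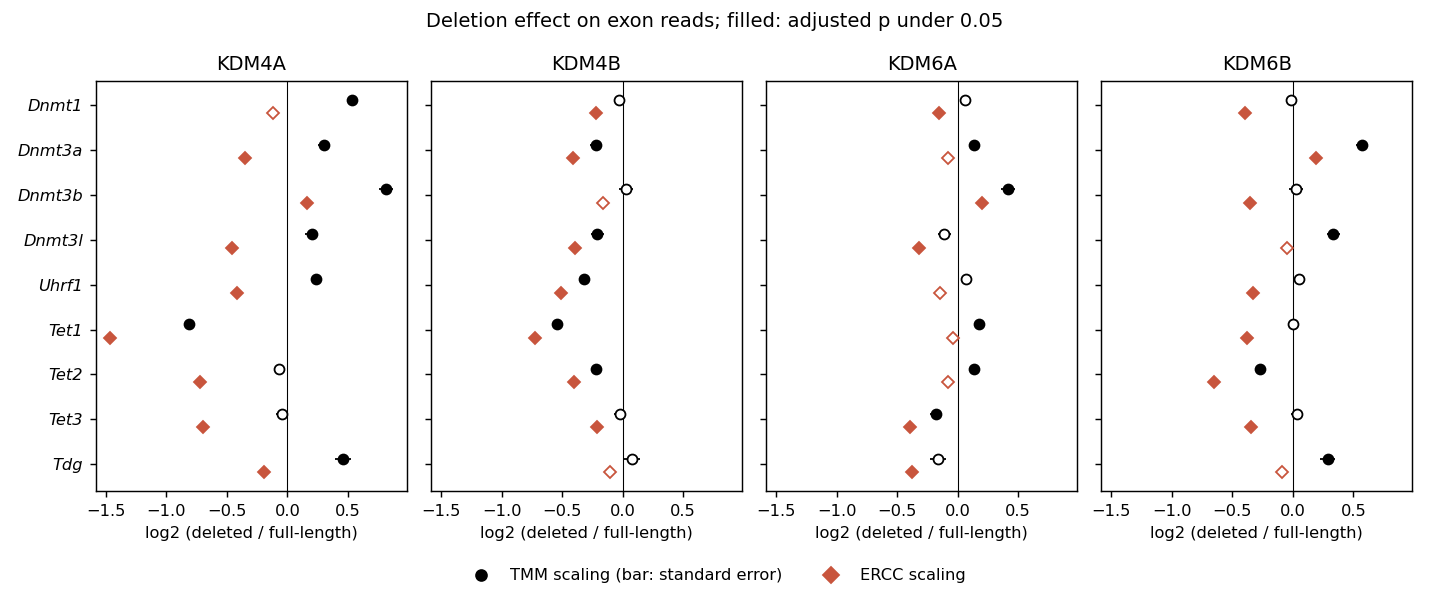
Deletion effect on each gene in the 4 demethylases, as log2 of IDR-deleted over full-length (horizontal axis), with TMM scaling (black circles, bars are the standard error) and ERCC scaling (red diamonds); filled symbols have an adjusted p under 0.05. ERCC scaling lies to the left of TMM scaling in every panel, by the most in KDM4A, where Tet1 is lowest on both scales and Dnmt3b is above 0 on both.

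Averaged over the 4 demethylases, Dnmt3b (0.32 ± 0.03), Dnmt3a (0.20 ± 0.02), Tdg (0.17 ± 0.03) and Dnmt1 (0.13 ± 0.02) rose on the TMM scale, and Tet1 (-0.29 ± 0.01) and Tet2 (-0.11 ± 0.01) fell (adjusted p = 2.1e-12, 5.8e-09, 7.3e-05, 3.6e-08, 2.3e-20 and 2.1e-07). In this comparison 42.1% of all genes were called, 21.1% higher and 21% lower. These averages are not changes shared by all 4 deletions. Dnmt1 rose in 1 of them, and Dnmt3b and Tdg in 2. Dnmt3a rose in 3 and fell in 1, and Tet1 and Tet2 each rose in 1 and fell in 2. With ERCC scaling none of the 9 rose and 8 fell, Tet1 by the most (-0.65), and Dnmt3b did not pass (-0.04, adjusted p = 0.36). The difference between the KDM4A and KDM4B effects passed for 8 of 9 (31.1% of all genes), the exception being Tet3, and the difference between KDM6A and KDM6B for 7 of 9 (21.8%), the exceptions being Dnmt1 and Uhrf1. Tet1 fell more in KDM4A than in KDM4B (-0.28 ± 0.04, adjusted p = 1.4e-07; -0.74 with ERCC scaling). Dnmt3b, which rose in KDM4A, differed there from KDM4B by 0.79 ± 0.08 (adjusted p = 2.1e-10; 0.32 with ERCC scaling).

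Among the full-length groups, KDM4A and KDM4B differed in 3 of 9 genes (24.3% of all): Dnmt3l was higher with KDM4A (0.33 ± 0.05), and Tet1 (-0.15 ± 0.03) and Tet2 (-0.18 ± 0.03) were lower. With ERCC scaling 8 were lower with KDM4A and Dnmt3l did not pass (-0.12, adjusted p = 0.15), where the median of all genes was -0.45. Full-length KDM6A and KDM6B differed in 8 of 9 (50.7% of all, 25.7% higher and 25% lower), with Tet3 not passing. With KDM6A the writers and cofactors were lower: Dnmt3b by -1.31 ± 0.06, Dnmt3l by -0.74 ± 0.05, Uhrf1 by -0.55 ± 0.04, Dnmt1 by -0.38 ± 0.03 and Dnmt3a by -0.32 ± 0.05, as was Tdg (-0.19 ± 0.07), while Tet1 (0.51 ± 0.03) and Tet2 (0.08 ± 0.03) were higher. ERCC scaling, which put the median of all genes at 0.999 in place of 0.08, made all but Dnmt3b (-0.39) higher with KDM6A. The full-length groups also enter the deletion comparisons, so these values are not independent of them.

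Ratios between genes of the same library do not depend on the scaling. The 5 writers and cofactors together drew 37.7 ± 1.26 reads per 100 reads of the 3 TET genes with full-length KDM4A and 76.6 ± 0.0235 with IDR-deleted KDM4A. With KDM6B the ratio was 65.6 ± 2.48 (full-length) and 72.9 ± 0.122 (IDR-deleted). With KDM4B it was 33.1 ± 0.0670 and 41.2 ± 1.14, and with KDM6A 35.8 ± 0.169 and 33.9 ± 0.827. The 3 high groups and the 5 low groups thus did not overlap.

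For 1 writer against 1 eraser, Dnmt3b drew 2.31 ± 0.0596 reads per 100 Tet1 reads with full-length KDM4A and 7.15 ± 0.395 after deletion. With KDM6B the numbers were 7.4997 ± 0.0976 and 7.63 ± 0.0376, with KDM4B 2.02 ± 0.117 and 2.99 ± 0.147, and with KDM6A 2.12 ± 0.0716 and 2.501 ± 0.0910. The same 3 groups were high again. These groupings were seen in the data, so they are described and not tested. The 3 groups are those with the fewest intronic repeat reads and the most mitochondrial reads per library (values above), whose part in the result was not tested.

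**Figure D3:**
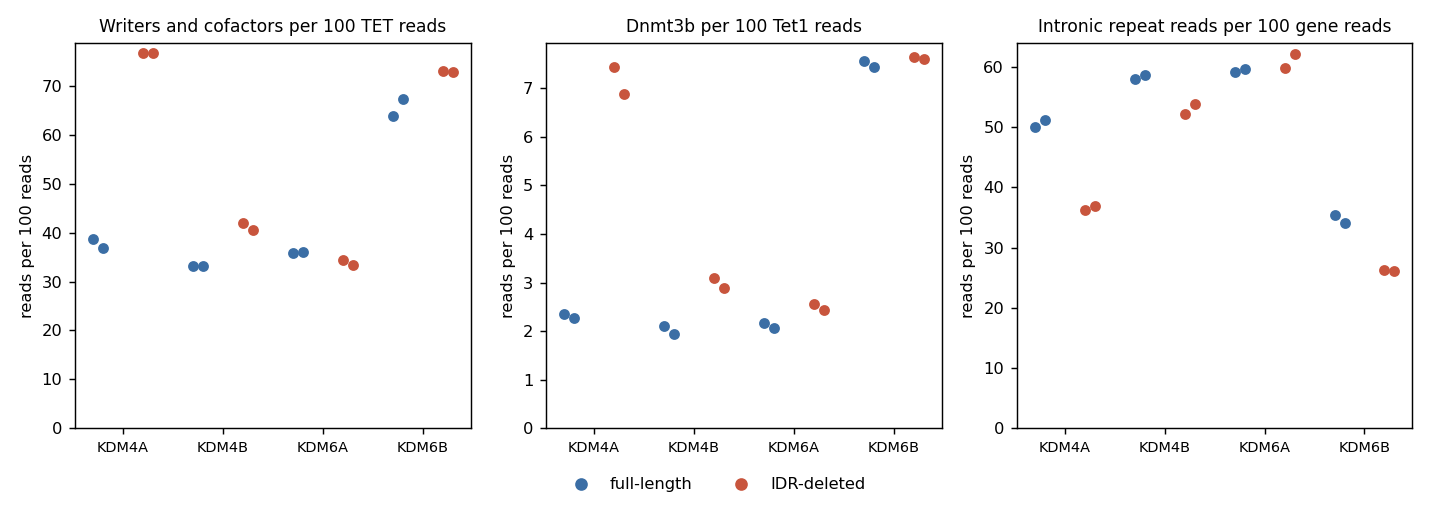
Reads per 100 reads (vertical axes from 0) in each of the 16 libraries, ordered by demethylase (blue full-length, red IDR-deleted): the 5 writers and cofactors against the 3 TET genes (left), Dnmt3b against Tet1 (middle), and all intronic repeat reads against all gene reads (right). IDR-deleted KDM4A and both KDM6B groups are high in the first and second panels and low in the third.

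A second readout of the same loci came from the repeat table: reads on repeat copies that lie within 1 gene and outside every exon. Introns are removed from RNA as it is made, so such reads come from RNA that still holds them, from cut-out introns or from other transcripts within the gene. The 9 genes hold 43 (Uhrf1) to 352 (Tet1) such copies, with 438 (Dnmt3b) to 40441 (Tet1) reads in a library. In all, 18304 genes could be tested this way. Their median log2 difference was -0.22 for KDM4A, -0.04 for KDM4B, 0.02 for KDM6A and -0.22 for KDM6B.

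In KDM4A the intronic reads of 2 genes rose and those of 3 fell (55.3% of all genes called, 18.3% higher and 37.1% lower). Tet1 intronic reads went from 602 and 623 to 322 and 321 CPM (-0.93 ± 0.03, adjusted p = 2.5e-31), a fall close in size to that of its exons. Dnmt1 went from 129 and 133 to 234 and 218 CPM (0.79 ± 0.04, adjusted p = 1.7e-22) and Dnmt3b from 12.7 and 12.99 to 20.6 and 21.7 CPM (0.72 ± 0.09, adjusted p = 4.8e-10), so both rose in both readouts, with ERCC values of 0.13 and 0.07 that did not pass (adjusted p = 0.063 and 0.58). Tet2, whose exon reads did not pass, fell here (-0.51 ± 0.05, adjusted p = 3.7e-13). Dnmt3a (0.14 ± 0.07), Dnmt3l (0.16 ± 0.08) and Tdg (0.13 ± 0.07) did not pass, and with ERCC scaling they were lower (-0.51, -0.49 and -0.52), as was Tet3 (-0.78, against -0.13 ± 0.08 on the TMM scale).

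Uhrf1 was the exception: in KDM4A its exon reads rose on the TMM scale and its intronic reads fell, from 35.7 and 35.9 to 24.7 and 23.8 CPM (-0.56 ± 0.07, adjusted p = 3.9e-10). Both were lower with ERCC scaling (-0.42 and -1.22). As a ratio free of scaling, Uhrf1 had 9.60 ± 0.179 intronic reads per 100 exon reads with full-length KDM4A and 5.51 ± 0.165 after deletion. In KDM4B the ratio went from 13.95 ± 0.371 to 10.2 ± 0.4900, in KDM6A from 12.4 ± 0.905 to 14.9 ± 0.619 and in KDM6B from 5.03 ± 0.243 to 3.84 ± 0.0735. In all 4 pairs the 2 groups did not overlap, but the share of all genes with such ratios apart was not counted. For exon reads, 53.6% (KDM6A) to 73.2% (KDM4A) of all genes did not overlap. Over all 16 libraries the Uhrf1 ratio ran from 3.79 to 15.3, the widest relative range of the 9 genes, and the library share of intronic reads moved the same way between the groups of each pair (part not tested).

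In KDM4B the same 5 genes fell in both readouts: the intronic reads of Uhrf1 (-0.77 ± 0.06), Tet2 (-0.40 ± 0.05), Dnmt3l (-0.40 ± 0.08), Tet1 (-0.35 ± 0.03) and Dnmt3a (-0.34 ± 0.07) were lower, and on this scale 41.2% of all genes were called (17% higher, 24.2% lower). All 5 also fell with ERCC scaling, as did Dnmt1 (-0.17) and Tet3 (-0.28, against -0.09 ± 0.07 on the TMM scale). In KDM6A, Tet2 (0.34 ± 0.05), Uhrf1 (0.33 ± 0.06), Dnmt3a (0.24 ± 0.07) and Tet1 (0.16 ± 0.03) rose and none fell (19.3% called, 11% higher and 8.21% lower), whereas with ERCC scaling none rose and 2 fell, Tet3 and Tdg. Dnmt3b, whose exon reads rose in KDM6A, gave 0.23 ± 0.09 (adjusted p = 0.053). In KDM6B, Tet2 (-0.52 ± 0.05), Tet1 (-0.35 ± 0.03), Uhrf1 (-0.34 ± 0.07), Tet3 (-0.23 ± 0.07), Dnmt3b (-0.22 ± 0.08) and Dnmt1 (-0.13 ± 0.04) fell (40.4% called, 5.2% higher and 35.2% lower). Of these, Tet1 lay beyond its exon value of 0.00, but the median of all genes was itself -0.22, and those of Tet3, Dnmt3b and Dnmt1 did not pass without full-length replicate 1 (adjusted p = 0.056, 0.14 and 0.22). With scaling over the intronic reads themselves, Tet3, Dnmt3b, Dnmt1 and Uhrf1 did not pass in KDM6B. With ERCC scaling the intronic reads of 8 genes fell there, Tdg (-0.44, against -0.06 ± 0.07) and Dnmt3a (-0.22, against 0.16 ± 0.07) being the additions.

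**Figure D4:**
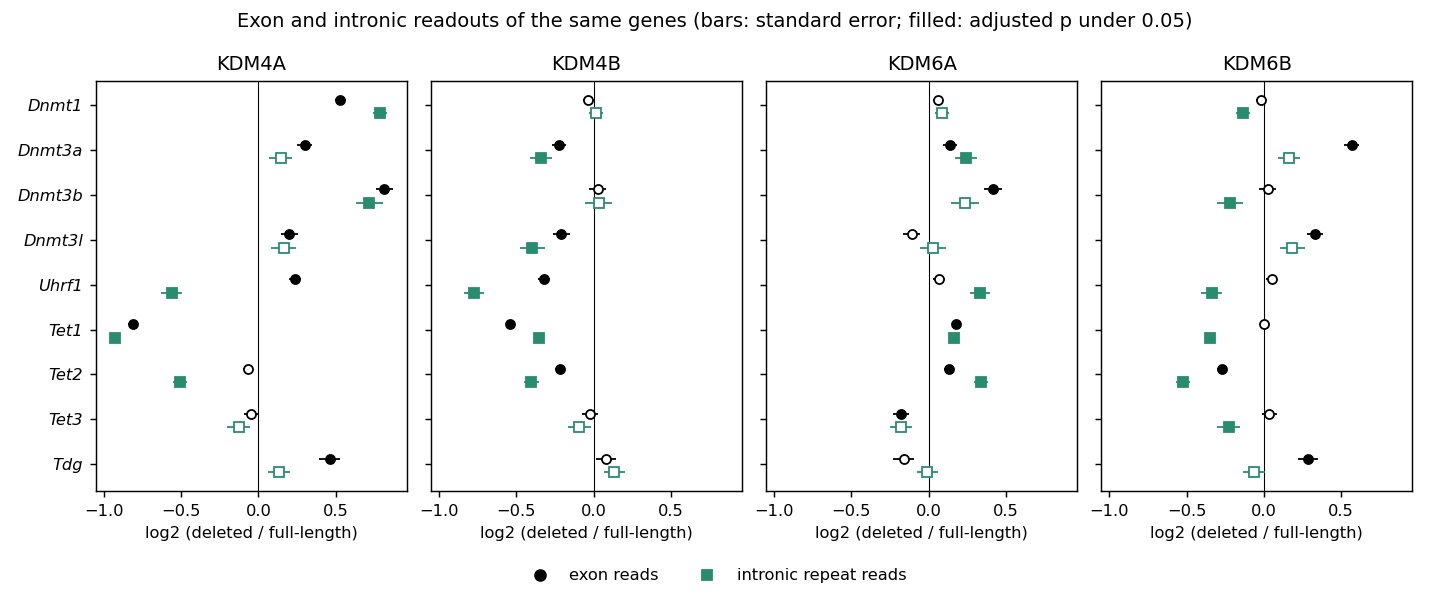
Deletion effect on exon reads (black circles) and on intronic repeat reads (green squares) of each gene in the 4 demethylases, as log2 of IDR-deleted over full-length on the TMM scale (horizontal axis, bars are the standard error); filled symbols have an adjusted p under 0.05. Tet1 falls in both readouts in KDM4A and KDM4B, and Uhrf1 in KDM4A lies at 0.24 in exons and -0.56 in introns (both below 0 with ERCC scaling).

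The genes that work with these 9 were described by 7 lists, with counts on the TMM scale followed by those with ERCC scaling. No test compares the lists with each other or with all genes. For KDM4A the counts stand beside 24.6% of all genes higher and 25.9% lower on the TMM scale, and 4.71% and 57.2% with ERCC scaling. In KDM4A, of 9 partners of maintenance methylation 7 rose and 2 fell (median 0.31; 2 and 5 with ERCC scaling). Rfc1, which loads the replication clamp, went from 195 ± 7.16 to 359.7 ± 5.47 CPM (0.88 ± 0.04), and the clamp itself, Pcna, fell (-0.50 ± 0.07). Of 15 genes of the repair of oxidised bases 10 rose and 2 fell (median 0.60; 6 and 6), with the smallest p-values for the repair polymerase Polb (1.17 ± 0.06; 0.52 with ERCC scaling) and Gadd45b (2.09 ± 0.10; 1.44), and with a fall of the glycosylase Neil1 (-0.86 ± 0.09). Gadd45g, outside the rule for named genes and chosen after its value was seen, rose by more, from 2.36 to 17.3 CPM (2.87 ± 0.14; 2.22). Of 13 TET cofactors and partners 9 rose and 0 fell (median 0.16; 0 and 9), among them Idh2, which makes the TET cosubstrate (0.59 ± 0.05; -0.06 with ERCC scaling).

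Of 11 methyl-CpG readers 2 rose and 6 fell in KDM4A (median -0.25; 0 and 9). Mbd4, a reader that is also a glycosylase for mismatched bases, rose (0.73 ± 0.05; 0.07 with ERCC scaling), and Mbd5 fell from 103 ± 3.74 to 50.8 ± 1.03 CPM (-1.02 ± 0.06). Of 14 regulators and targeting factors of de novo methylation 6 rose and 4 fell (median 0.08; 2 and 10). Of 3 H3K36 methyltransferases, whose marks DNMT3 enzymes read, Setd2 rose (0.44 ± 0.03), Nsd1 fell (-0.89 ± 0.03) and Nsd2 did not pass (0.08 ± 0.04), and all 3 fell with ERCC scaling (-0.22, -1.54 and -0.57). Prdm14, known as a repressor of Dnmt3b in naive cells, fell (-0.95 ± 0.08). It also fell in KDM4B (-0.50 ± 0.08), where Dnmt3b did not pass. It did not pass in KDM6A (-0.14 ± 0.07), where Dnmt3b rose, or in KDM6B (-0.17 ± 0.08). With ERCC scaling Prdm14 was lower in KDM4A, KDM4B, KDM6A and KDM6B (-1.60, -0.69, -0.35 and -0.55). A link between Prdm14 and Dnmt3b was not tested. Of 14 genes of methyl donor supply 5 rose and 4 fell in KDM4A (median 0.08, and 0 and 12 with ERCC scaling), with the threonine dehydrogenase Tdh at -1.39 ± 0.07.

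Of 16 germline genes that DNA methylation is known to silence, 13 rose and 1 fell in KDM4A (median 0.58; 5 and 3), and 8 rose and 1 fell in KDM4B (median 0.64; 8 and 2). Of all genes, 24.6% and 18.6% rose in these comparisons (4.71% and 9.26% with ERCC scaling). The piRNA helicase Mov10l1 rose in both (1.02 ± 0.08 and 1.10 ± 0.08), Ddx4 in KDM4A (1.18 ± 0.12) and Brdt in KDM4B (1.75 ± 0.11), while Stk31 fell in both (-0.9996 ± 0.09 and -1.32 ± 0.09). These 6 calls kept their direction with ERCC scaling (0.37, 0.91, 0.52, 1.56, -1.65 and -1.51). In KDM6A 1 rose and 1 fell (0 and 3), and in KDM6B 0 rose and 3 fell (0 and 9), Dazl among them (-0.94 ± 0.10).

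For the other 6 lists in the remaining deletions, the shares of all genes higher and lower were 18.6% and 17.6% (KDM4B), 8.3% and 8.65% (KDM6A) and 9.89% and 10.7% (KDM6B). With ERCC scaling they were 9.26% and 27.6%, 1.43% and 23%, and 2.13% and 42.8%. In KDM4B, rises and falls were 3 and 2 for maintenance partners (1 and 4 with ERCC scaling), 7 and 3 for oxidised-base repair (4 and 5), 5 and 4 for TET cofactors and partners (0 and 7), 2 and 4 for readers (0 and 7), 3 and 6 for de novo regulators (2 and 10) and 5 and 2 for methyl donor supply (1 and 7). Lig1, the ligase that recruits UHRF1 when methylated, fell (-0.42 ± 0.04), as did Nsd1 (-0.41 ± 0.03) and Mat2a, which makes the methyl donor (-0.37 ± 0.04). In KDM6A they were 1 and 2 (0 and 4), 4 and 4 (1 and 8), 1 and 4 (1 and 7), 1 and 1 (0 and 5), 4 and 2 (0 and 9) and 4 and 4 (0 and 8) in the same order. Here Lig1 (0.27 ± 0.04) and Nsd1 (0.31 ± 0.03) rose on the TMM scale, at 0.05 and 0.10 with ERCC scaling, where neither passed. In KDM6B they were 2 and 0 (0 and 8), 4 and 2 (0 and 11), 5 and 2 (0 and 10), 2 and 4 (0 and 10), 1 and 4 (0 and 14) and 4 and 2 (0 and 14). There the reader Mbd2 was lower (-0.46 ± 0.07), as was Dppa3, whose protein is known to hold back UHRF1 (-0.56 ± 0.13). Dppa3 also fell in KDM6A (-0.91 ± 0.17) and rose in KDM4A (1.22 ± 0.14) and KDM4B (1.19 ± 0.17). With ERCC scaling it was -0.94 in KDM6B, -1.12 in KDM6A, 0.56 in KDM4A and 1.00 in KDM4B. Its group means were low, from 1.47 to 19.9 CPM.

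**Figure D5:**
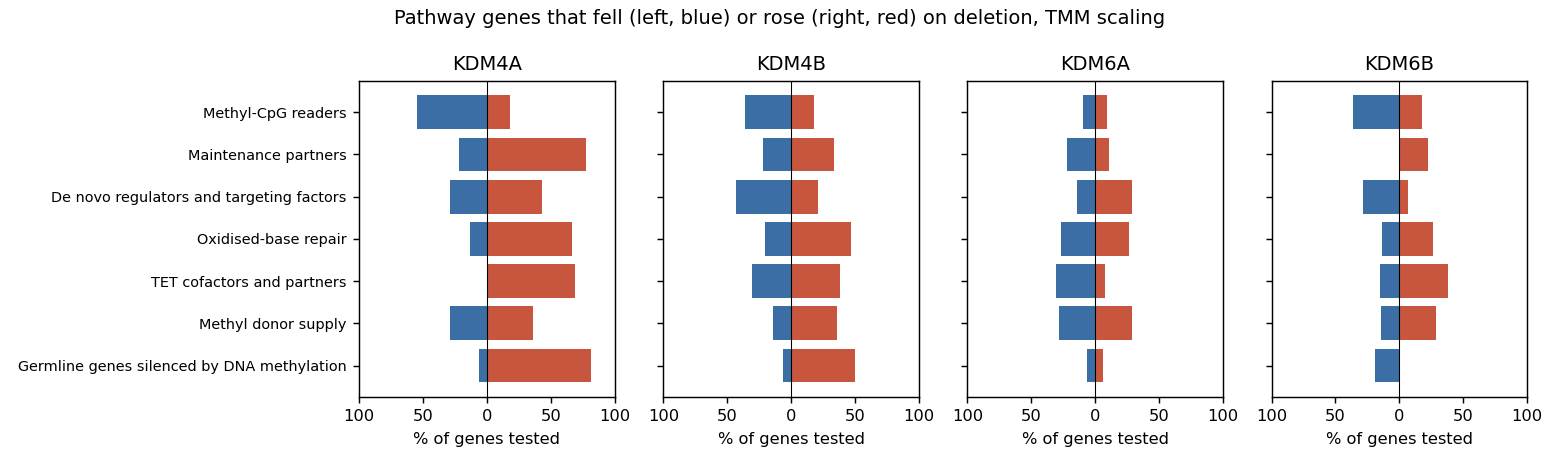
Share of the genes tested in each of 7 lists (9 to 16 genes) that rose (red, right) or fell (blue, left) on deletion, in percent, in the 4 demethylases on the TMM scale. Rises are most frequent in KDM4A for maintenance partners (7 of 9) and germline genes (13 of 16), which with ERCC scaling become 2 of 9 and 5 of 16.

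Markers of stem cells and of other cell types moved with some of these results. Their counts and sums are on the TMM scale. Markers were not counted with ERCC scaling, which lowered the median of all genes in every deletion. Of all genes, 24.6% rose and 25.9% fell in KDM4A, and 18.6% and 17.6% in KDM4B. The shares were 8.3% and 8.65% in KDM6A and 9.89% and 10.7% in KDM6B. Of the 10 embryonic stem cell markers 4 rose and 4 fell in KDM4A, 1 and 6 in KDM4B, 6 and 1 in KDM6A and 3 and 2 in KDM6B. Their sum went from 2321 to 1889.7 CPM in KDM4B and from 2151 to 2332 CPM in KDM6A. Most of both shifts lay in Zfp42, which went from 908 to 578 CPM in KDM4B and from 792 to 939 CPM in KDM6A. Markers of 2-cell-like cells summed to 221 CPM with full-length KDM4A and 60.1 CPM after deletion (0 rose and 7 fell of 8), to 236 and 85.6 CPM with KDM4B (0 and 5), to 154 and 127 CPM with KDM6A (0 and 4) and to 38.2 and 44.0 CPM with KDM6B (2 and 0). Zscan4c, Zscan4d and Zscan4f, of 1 gene family, held most of these reads (60.4, 71.8 and 50.4 CPM with full-length KDM4A), so the sums mainly follow them. The 3 groups with the lowest 2-cell-like sums, IDR-deleted KDM4A and both KDM6B groups, were also the 3 lowest for Tet1. Primitive endoderm markers summed to 650.2 and 928 CPM with KDM4A (7 rose and 0 fell of 9). With KDM4B the sums were 596 and 679 CPM (5 and 0), and with KDM6A 601 and 702 CPM (2 and 0). With KDM6B they were 1005 and 803 CPM (0 and 2). Most of these reads were on Lama1 and Col4a1, so the sums mainly follow these genes. With KDM6A, Lama1 went from 394 to 451 CPM and Col4a1 from 184 to 230 CPM. With KDM6B, Lama1 went from 590 to 357 CPM and Col4a1 from 375 to 412 CPM. The median log2 change of the list was 1.21 (KDM4A), 0.78 (KDM4B), -0.15 (KDM6A) and -0.02 (KDM6B). Of the 7 trophectoderm markers tested, 6 rose and 0 fell in KDM4A, 5 and 0 in KDM4B, 1 and 0 in KDM6A and 0 and 1 in KDM6B. Of the 6 primed epiblast markers tested, 2 rose and 2 fell in KDM4A, 1 and 1 in KDM4B, 1 and 0 in KDM6A and 1 and 0 in KDM6B. Of the 7 neural markers 3 rose and 1 fell in KDM4A, 0 and 5 in KDM4B, 2 and 1 in KDM6A and 5 and 0 in KDM6B. Fibroblast markers summed to 29.8 and 80.7 CPM with KDM4A (3 rose and 0 fell of 6 tested), 18.99 and 38.1 CPM with KDM4B (2 and 0), 31.7 and 23.3 CPM with KDM6A (0 and 1) and 56.1 and 64.8 CPM with KDM6B (2 and 0). Most of these reads were on Mmp2 and Pdgfrb, and the defining fibroblast genes Postn, Dcn and Lum had at most 0.115 CPM in any library. The part of these markers in the results was not tested.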

How the data were processed

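Chromatin-associated RNA was sequenced in 16 libraries of 8 groups, rRNA-depleted and made with a stranded kit, per the labels. The values used are raw read counts that the authors deposited per gene and per repeat copy. Per the file headers, featureCounts 2.0.3 made them from reads with mapping quality 30 or more, without a strand option and with each read of a pair counted, and reads on several features were left out. Alignments were to GRCm39 with HISAT2, per the submitters' processing notes. Symbols came from GENCODE M21 by Ensembl identifier (51948 of 56941 entries). The 92 ERCC RNAs entered neither library sizes nor tests. No column was pooled.

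Genes were filtered with filterByExpr (minimum count 10), scaled by TMM and tested with edgeR 4.0.16 in R 4.3.3, in 1 robust quasi-likelihood fit of 8 group means (residual df 8). P-values were adjusted by Benjamini-Hochberg over all genes tested. The standard error is the log2 change divided by the root of F. Intronic repeat reads used the effective library sizes of the genes. For 2 against 2 libraries an exact test alone could not pass 0.05. RPKM used the exon length in the deposited table. The scripts were tested on simulated data.

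Members, lists and tests were chosen with earlier results of these data known. Named genes were all 9 members, the 4 demethylases, and from each list and deletion up to 2 rises and 2 falls with the smallest p and at least 1 CPM, of which examples are printed, and the 3 genes closest in pattern to each member whose group means span at least 1 on the log2 scale. Some genes named for 1 deletion are also given in the others, and markers that carry most of a sum are named. Alternatives were median-ratio and ERCC scaling, DESeq2 1.42.0, other filters, a replicate block, thinned counts, fits of 4 libraries and leaving out each library.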

Additional observations from a re-analysis of the deposited data

Results flagged for a closer look

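These results stood out because the deletion effect differed between demethylases by a test of the difference itself (edgeR, adjusted over all genes). The KDM4A effect minus the KDM4B effect was 0.79 for Dnmt3b, 0.56 for Dnmt1, 0.56 for Uhrf1, 0.52 for Dnmt3a, 0.41 for Dnmt3l, 0.38 for Tdg, 0.15 for Tet2 and -0.28 for Tet1 (adjusted p = 2.1e-10, 1.1e-11, 4.1e-11, 4.2e-08, 4.7e-05, 0.0015, 0.0051 and 1.4e-07). With ERCC scaling 4 passed: Dnmt3b higher (0.32), and Tet1 (-0.74), Tet2 (-0.31) and Tet3 (-0.49) lower in KDM4A.

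The KDM6A effect minus the KDM6B effect was 0.41 for Tet2, 0.39 for Dnmt3b and 0.18 for Tet1, and -0.45 for Tdg, -0.44 for Dnmt3l, -0.43 for Dnmt3a and -0.22 for Tet3 (adjusted p = 2.2e-09, 2.0e-04, 3.7e-04, 4.0e-04, 3.3e-05, 4.2e-06 and 0.026). With ERCC scaling the values for Tet2 (0.57), Dnmt3b (0.56), Tet1 (0.34), Dnmt3a (-0.27) and Dnmt3l (-0.28) still passed, Tdg (-0.28, adjusted p = 0.062) and Tet3 (-0.05, adjusted p = 0.76) did not, and Dnmt1 did (0.24, adjusted p = 0.017).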

How the results depend on the processing

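Median-ratio scaling changed no call on any of the 9 genes, and DESeq2, thinned counts and the replicate block changed 1 each. ERCC scaling reversed 34 values that passed on at least 1 of the scales. In KDM4A these were Dnmt1 -0.12, Dnmt3a -0.35, Dnmt3l -0.45, Uhrf1 -0.42 and Tdg -0.19. In KDM6A they were Dnmt1 -0.15, Dnmt3a -0.077, Tet1 -0.036 and Tet2 -0.082. In KDM6B they were Dnmt3b -0.36, Dnmt3l -0.048, Uhrf1 -0.33, Tet1 -0.38, Tet3 -0.34 and Tdg -0.093. In the average they were Dnmt1 -0.22, Dnmt3a -0.16, Dnmt3b -0.038, Dnmt3l -0.31, Uhrf1 -0.35 and Tdg -0.19. In the KDM4A and KDM4B difference they were Dnmt3l -0.057, Tet2 -0.31 and Tdg -0.085. Between full-length KDM4A and KDM4B they were Dnmt3b -0.41, Dnmt3l -0.12, Uhrf1 -0.40, Tet3 -0.45 and Tdg -0.40, and between full-length KDM6A and KDM6B Dnmt1 0.54, Dnmt3a 0.60, Dnmt3l 0.18, Uhrf1 0.38 and Tdg 0.74. The sign also turned, with neither value passing, for Dnmt3b (-0.16) and Tdg (-0.11) in KDM4B and Uhrf1 (-0.15) in KDM6A. Counts of called members moved to 7 in KDM6B, to 4 in the KDM4A and KDM4B difference and to 8 between full-length KDM4A and KDM4B.

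For intronic reads, ERCC scaling (chosen after seeing the data) gave 2 calls in KDM6A and reversed Dnmt3a -0.51, Dnmt3l -0.49 and Tdg -0.52 (KDM4A), Dnmt1 -0.17 (KDM4B), Tet1 -0.053 (KDM6A) and Dnmt3a -0.22 (KDM6B). Without passing on either scale, the sign turned for Dnmt3b (-0.16) and Tdg (-0.054) in KDM4B, Dnmt1 (-0.13) and Dnmt3l (-0.18) in KDM6A and Dnmt3l (-0.20) in KDM6B. Scaling over the intronic sums gave 8 calls in KDM4A and reversed Dnmt1 (0.088) and Dnmt3b (0.0014) in KDM6B. The cause was not tested.

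With 1 library left out, called exon members numbered 6 to 8 in KDM4A, 4 to 5 in KDM4B, 3 to 5 in KDM6A, 4 to 4 in KDM6B, 6 to 7 in the average, 8 to 8 and 6 to 7 in the differences (KDM4, KDM6), 3 to 3 and 6 to 8 between full-length proteins, and 8 to 9 in the joint test. Called intronic members numbered 5 to 6, 5 to 5, 3 to 4 and 4 to 6. Same-numbered libraries deviated together among the KDM4A, KDM4B and KDM6A groups (15 pairs of groups, correlations of 0.2656 to 0.3427) but less so in pairs with a KDM6B group (0.0017 to 0.0833). Not all 28 pairs passed 0.1, so the numbers were not taken as pairing the libraries. The labels do not give what set the KDM6B libraries apart. In comparisons of KDM6A with KDM6B it cannot be told apart from the construct. With the replicate block 8, 5, 5 and 4 exon members were called in KDM4A, KDM4B, KDM6A and KDM6B, and 5, 5, 6 and 6 intronic ones. The calls gained were Tet2 in KDM4A exons, and Dnmt3b and Tet3 in KDM6A introns. Over all genes, calls went from 6407 to 13954 (KDM6B), from 13071 to 19659 (average) and from 7538 to 15616 (full-length KDM4A against KDM4B) with ERCC scaling. Without 1 KDM6B library they went down to 4078, and without 1 full-length KDM6A library to 3490 from 5265. Lone libraries were assumed to vary like the other groups.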

Other observations

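Genes with group levels most like those of Dnmt3b and Dnmt3l, the 2 genes that spanned at least 2-fold over the groups, were sought by the root mean square difference, over the 8 groups, of log2 CPM taken as deviations from each gene's own mean, among 9462 genes. For Dnmt3b they were Ngdn (0.08), Phax (0.09) and Ruvbl2 (0.10), and for Dnmt3l they were Fbxl14 (0.10), Nes (0.11) and Gars (0.12). Ruvbl2, for example, stood at 91.0 CPM in IDR-deleted KDM4A and at 104 and 93.6 CPM in full-length and IDR-deleted KDM6B, against 44.8 to 58.6 CPM in the other 5 groups. These are descriptions over 8 means of 2 libraries.

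The balance between the 2 de novo writers also varied. Dnmt3b drew 122 ± 6.505 reads per 100 Dnmt3a reads with full-length KDM6B and 83.7 ± 0.723 with IDR-deleted KDM6B, and 64.4 ± 0.109 and 92.1 ± 4.73 with full-length and IDR-deleted KDM4A. It went from 61.4 ± 3.17 to 73.1 ± 2.605 with KDM4B and from 61.4 ± 3.29 to 74.5 ± 1.93 with KDM6A, so KDM6B was the 1 deletion with a lower ratio. The ratio does not depend on scaling, and its differences were not tested. Within the TET genes, Tet1 made up 76.2% ± 0.266 of reads with full-length KDM4A and 65.5% ± 0.0419 after deletion, and 64.7% ± 0.336 and 68.4% ± 0.0429 with KDM6B. With KDM4B the share was 76.0% ± 0.208 and 71.5% ± 0.0628, and with KDM6A 71.3% ± 0.122 and 72.4% ± 0.389.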
